A study of Mus musculus with 20 samples.

Results

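The 10 genes Sox8, Sox9, Gata1, Gata4, Gata6, Wt1, Nr0b1, Dmrt1, Rhox5 and Tcf21 encode transcription factors of Sertoli cells and of the supporting cell lineage from which they arise. They were chosen by name from the 18193 genes that the platform annotation gives a symbol, and every probe set assigned to 1 of these symbols alone was taken, which gave 16 of the 45101 probe sets on the array. All 16 passed the filter on low values. The study followed whole mouse testis after birth on 20 arrays of total RNA, 2 a day, in the first week (days 0, 3 and 6), the second (days 8, 10 and 14), the third (days 18 and 20) and later (days 30 and 35). The labels give no treatment. Neither strain and genotype nor whether the 2 arrays of a day came from separate animals is stated in the sources used here, so the p-values cover the spread of these arrays alone, which may be technical. For the array of day 18 replicate 2, by its title, the source label names day 0, and the title was followed. Its values correlated across all probe sets tested with r = 0.958 with the other day 18 array, and with r = 0.786 and r = 0.785 with the day 0 arrays.

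Sertoli cells are the nurse cells of the seminiferous tubules. In the fetal gonad SRY switches on Sox9, and SOX9, together with its close relative SOX8, directs the supporting cells to the Sertoli fate; WT1 and the zinc finger factors GATA4 and GATA6 act in the gonad before and after that step. After birth DMRT1 keeps mouse Sertoli cells from taking on features of ovarian granulosa cells, Gata1 and the homeobox gene Rhox5 are switched on in maturing Sertoli cells, and Nr0b1 encodes DAX1, an orphan nuclear receptor that represses the steroidogenic factor NR5A1. The genes are not confined to Sertoli cells: Dmrt1 is also transcribed in spermatogonia, Gata4, Gata6 and Nr0b1 in Leydig cells, and Tcf21, a basic helix-loop-helix gene, in interstitial mesenchyme.

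Values are linear intensities without detection calls, and differences are on the scale of log2(intensity + 7.84). A probe set was called when its adjusted p was under 0.05 and the difference was at least 1 in size, that is 2-fold, and "rose" and "fell" are used of called differences only. Because whole testis was measured, fewer cells of a type and less RNA per cell cannot be told apart. The 2 arrays of a day correlated with r between 0.934 and 0.981. All arrays have a 2% trimmed mean of 125. Low values sit higher on the later arrays: the median of 27 bacterial control probe sets was 5.40 to 11.0 on the 8 arrays of days 18 to 35 and 1.21 to 3.996 on the 12 arrays of days 0 to 14. This bears on probe sets with low values, which are named as such below. Levels of different probe sets are not compared with each other. Where the arrays of 2 days are said not to overlap, this is a description. The share of all probe sets separated in this way was not counted.

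2 of the 3 members on the X chromosome, Nr0b1 and Rhox5, were both highest on day 10, and the 250 bases before their start sites are shown for that reason, as RefSeq gives them for assembly GRCm38.p6. In the Nr0b1 window, at chrX:86191525-86191774 on the plus strand, the capitals mark AGGTCA, a core motif of nuclear receptors such as NR5A1, from position -126 to position -121 relative to the start site. In the Rhox5 window, at chrX:37754358-37754607 on the plus strand, the capitals mark positions -227 to -220, where the letters ATTGT of the SOX site (ACAAT on the other strand) overlap TGTTCT, a core motif of the androgen receptor. Rhox5 has a proximal promoter used in Sertoli cells and a distal one used elsewhere, and the table does not say to which this start site belongs.
Nr0b1: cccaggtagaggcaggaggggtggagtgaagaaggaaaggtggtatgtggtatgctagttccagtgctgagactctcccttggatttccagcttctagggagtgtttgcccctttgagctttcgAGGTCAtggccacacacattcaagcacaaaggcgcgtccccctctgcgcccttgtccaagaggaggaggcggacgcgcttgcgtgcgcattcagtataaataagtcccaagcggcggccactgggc
Rhox5: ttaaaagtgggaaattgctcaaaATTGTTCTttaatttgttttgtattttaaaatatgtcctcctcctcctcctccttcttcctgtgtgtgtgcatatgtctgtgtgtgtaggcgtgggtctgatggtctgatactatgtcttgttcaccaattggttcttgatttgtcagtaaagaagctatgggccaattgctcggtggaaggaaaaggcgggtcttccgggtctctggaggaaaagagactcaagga
Each is a match of letters only. Of 32851 RefSeq windows of 250 bases, 14.0% hold AGGTCA, 27.7% hold ACAAT and 16.1% hold TGTTCT, counting both strands. 5 of the 10 genes have a window in this table. The GATA site, searched as the letters GATA with A or T before them and A or G after them and present in 26.5% of windows, was found in that of Tcf21, at positions -31 to -26, and not in those of Nr0b1, Rhox5, Gata1 and Sox8. The Gata1 window lies before a start site 8753 bases inside the gene from its 5′ end, so it does not show the start of the gene as annotated.

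**Figure D1:**
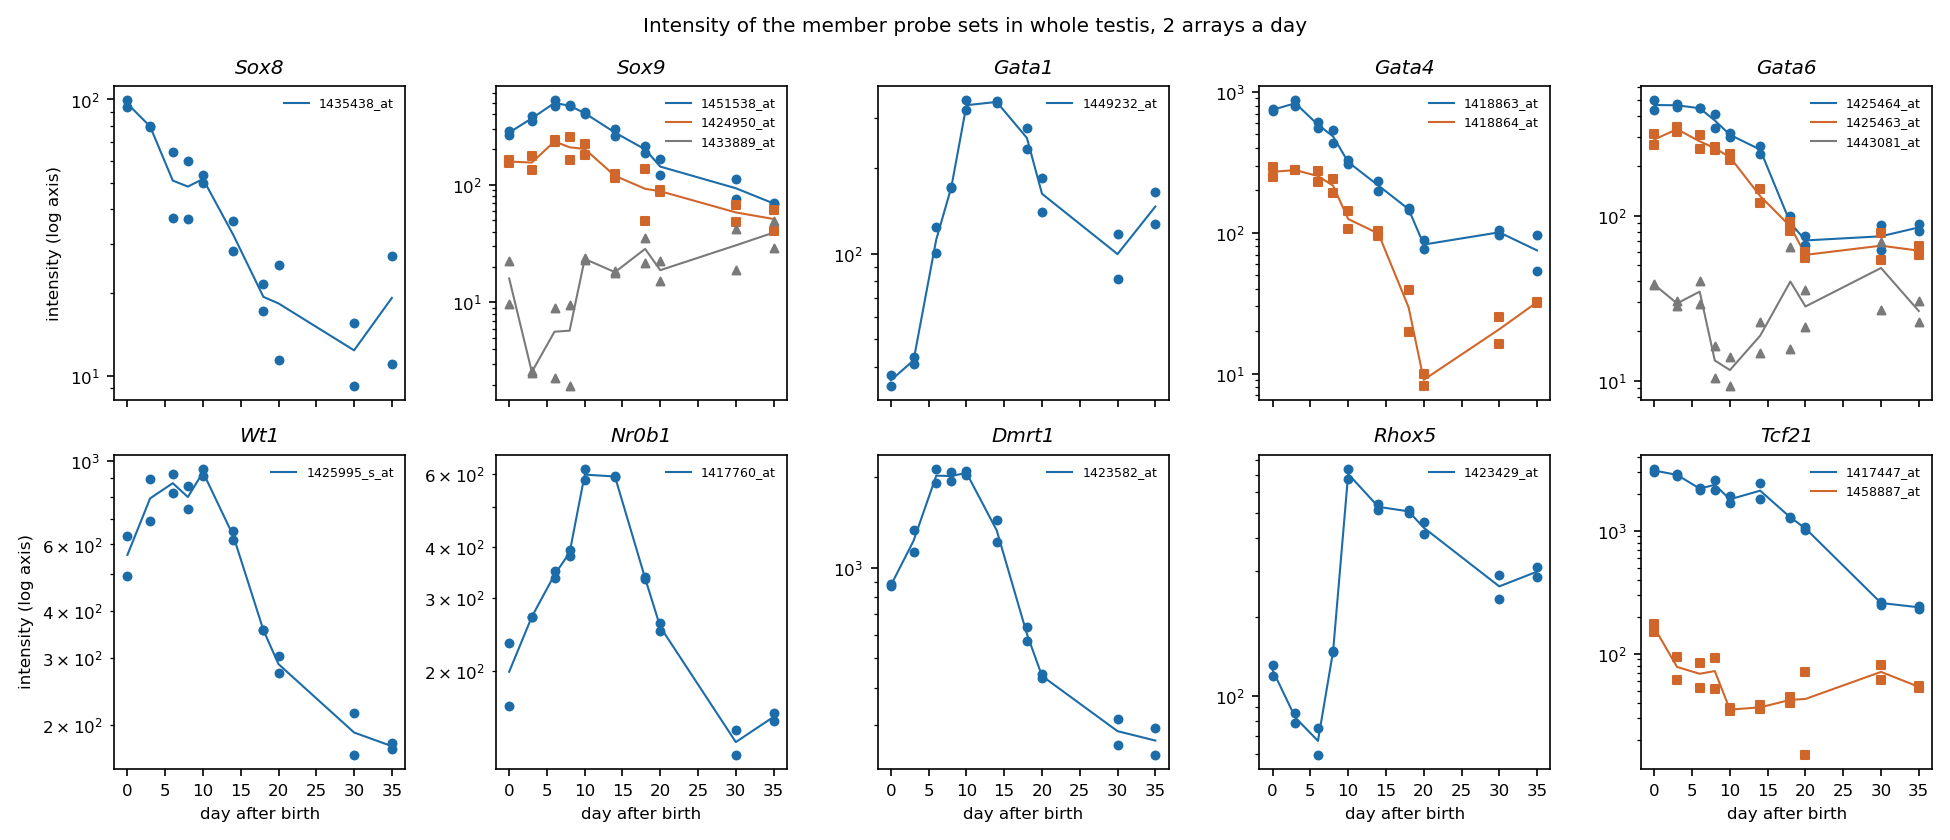
Intensity of the 16 probe sets (log axis) against day after birth, 1 panel a gene. Points are the 20 arrays and lines join the day means (n = 2). The courses fall into those highest on days 0 or 3 (Sox8, Gata4, Gata6, Tcf21), those highest on days 6 to 10 (Sox9, Wt1, Dmrt1, Nr0b1, Rhox5) and Gata1, highest on day 14. Grey triangles are the low probe sets of Sox9 and Gata6.

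Over the whole course 15 of the 16 member probe sets were called (moderated F test), where 73.1% of the 37292 probe sets tested were. All 10 genes had at least 1 called probe set. The exception was the low Gata6 probe set 1443081_at, with an adjusted p of 0.0804.

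Sox9, the gene that directs the Sertoli fate, was highest at the end of the first week. Its brightest probe set, 1451538_at, read 266 and 289.6 on day 0, 349 and 387 on day 3, 470.3 and 523 on day 6, 476 and 465 on day 8, 397 and 417 on day 10, 297 and 259.9 on day 14, 212 and 188 on day 18, 166 and 120.2 on day 20, 111 and 75.9 on day 30, and 69.3 and 69.6 on day 35. By mean the days ran 6, 8, 10, 3, 14, 0, 18, 20, 30 and 35 from highest to lowest, with overlapping arrays on days 6 and 8 and on days 14 and 0. The mean was 69.5 ± 0.206 (SD) on day 35, the lowest, and 497 ± 37.6 on day 6, the highest, 7.15 times as much. The probe set 1424950_at ran along it (r = 0.97 over the 10 day means), with 51.2 ± 14.6 on day 35 and 234 ± 6.63 on day 6. Its 2 day 18 arrays stood apart from each other, at 136 and 49.2. The third, 1433889_at, lay between 1.94 and 49.3, was above the 40th percentile on 7 of 20 arrays, and ran the other way, with r = -0.77 with the first. It sat near the control level on days 3 to 8. It read 24.1 and 22.8 on day 10, where the control medians were 1.40 and 1.21. Its highest day, day 35, at 49.3 and 29.2, is among those with the raised low values. The cause of its course was not tested.

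Sox8, which can stand in for Sox9 in the fetal testis, was highest at birth. Its only probe set, 1435438_at, read 99.3 and 93.7 on day 0, 80.1 and 79.6 on day 3, 64.5 and 37.2 on day 6, 59.8 and 37.0 on day 8, 49.6 and 53.5 on day 10, 36.5 and 28.3 on day 14, 21.5 and 17.1 on day 18, 11.4 and 25.1 on day 20, 15.5 and 9.18 on day 30, and 27.2 and 11.0 on day 35. Both day 0 arrays lay above all 18 others, and both day 3 arrays above those of every later day. The day 0 mean was 7.81 times the lowest, 12.4 ± 4.50 on day 30. The 2 arrays of a day differed widely on days 6, 8, 20 and 35, and single arrays of days 20, 30 and 35 came near the bacterial control level, so no order is read among the late days.

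Wt1, the Wilms tumour gene, whose product is needed to keep the Sertoli cell identity after sex determination, followed a course close to that of Sox9. Its probe set 1425995_s_at read 495 and 631 on day 0, 694 and 895 on day 3, 920.3 and 822 on day 6, 744 and 858 on day 8, 913 and 950.2 on day 10, 616 and 650.4 on day 14, 356 and 356 on day 18, 305 and 275 on day 20, 167 and 215 on day 30, and 179 and 173 on day 35. It was highest on day 10, overlapping day 6, and lowest on day 35. The ratio of the highest to the lowest day mean was 5.30. The levels of days 3, 6, 8 and 10 overlapped in part, and all 8 arrays of days 18 to 35 lay below all 12 of days 0 to 14.

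Gata4, a partner of NR5A1 and WT1 on gonadal promoters such as that of Amh, was highest on day 3 and then lower on every later day up to day 20. The probe set 1418863_at read 736 and 756 on day 0, 790.2 and 872 on day 3, 553 and 615 on day 6, 433 and 533 on day 8, 309 and 326 on day 10, 234 and 198 on day 14, 149 and 145 on day 18, 76.2 and 88.7 on day 20, 96.7 and 105 on day 30, and 53.5 and 96.2 on day 35. Day 3 stood clear of every other day, and the mean there was 11.1 times the day 35 mean of 74.9 ± 30.2. The arrays of day 35 overlapped those of day 20. The probe set 1418864_at read 247 and 295 on day 0, 277 and 279 on day 3, 229.7 and 276 on day 6, 241 and 191 on day 8, 144 and 107 on day 10, 103 and 94.5 on day 14, 39.4 and 19.7 on day 18, 9.91 and 8.15 on day 20, 25.2 and 16.1 on day 30, and 31.9 and 32.3 on day 35. It shared the early course (r = 0.96 with the first), but its day 20 values lay within the range of the bacterial control medians, and while both probe sets were higher on day 30 than on day 20 in both arrays, the day 35 arrays of 1418864_at lay above those of day 20 and in the other probe set they overlapped them.

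Gata6, a relative of Gata4 found in Sertoli and Leydig cells, had a similar course. The probe set 1425464_at read 436 and 499 on day 0, 457 and 475 on day 3, 446 and 448 on day 6, 413 and 340.1 on day 8, 300.01 and 317 on day 10, 265 and 237 on day 14, 99.2 and 81.2 on day 18, 75.5 and 65.9 on day 20, 87.6 and 62.2 on day 30, and 80.3 and 89.2 on day 35. Days 0, 3 and 6 overlapped, and the day 0 mean was 6.61 times that of day 20, the lowest. The probe set 1425463_at (r = 0.98 with the first) had its lowest mean, 57.8 ± 3.07, on day 20 and its highest, 333 ± 17.0, on day 3. The probe set 1443081_at lay between 9.26 and 69.6 and above the 40th percentile on 11 arrays, its day 18 arrays read 64.1 and 15.6 and its day 30 arrays 26.7 and 69.6, and its course followed neither of the others (r = -0.29 and r = -0.25).

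Dmrt1 held a plateau on days 6, 8 and 10. Its probe set 1423582_at read 869 and 882 on day 0, 1125 and 1337 on day 3, 2132 and 1919 on day 6, 1951 and 2088 on day 8, 2038 and 2101 on day 10, 1221 and 1446 on day 14, 636 and 570.4 on day 18, 432 and 443 on day 20, 259 and 314 on day 30, and 294 and 239 on day 35. The 6 arrays of days 6, 8 and 10 lay between 1919 and 2132 and overlapped between days. All 14 other arrays lay below them, the highest being the day 14 array at 1446. The day 35 mean was 267 ± 39.0, and that of day 10, 2069.5 ± 44.9, was 7.76 times as high.

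Gata1, an X-linked gene best known from red blood cell development, was the only member whose lowest day was day 0. Its probe set 1449232_at read 34.1 and 37.5 on day 0, 40.7 and 43.4 on day 3, 100.5 and 124 on day 6, 172 and 171 on day 8, 348 and 321 on day 10, 345 and 341 on day 14, 278 and 234 on day 18, 140.0 and 185 on day 20, 81.7 and 118 on day 30, and 128 and 166 on day 35. The mean was 343 ± 3.04 on day 14, the highest, against 35.8 ± 2.37 on day 0, a ratio of 9.58, and the arrays of days 10 and 14 overlapped. It was lower on the later days, yet all arrays of days 18 to 35 lay above the 4 arrays of days 0 and 3.

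Nr0b1 also peaked in the second week. Its probe set 1417760_at read 164 and 233 on day 0, 270.4 and 270.4 on day 3, 336 and 348 on day 6, 394 and 380.1 on day 8, 618 and 579 on day 10, 592 and 593 on day 14, 333 and 337 on day 18, 262 and 249 on day 20, 143 and 125 on day 30, and 151 and 158 on day 35. Days 10 and 14 overlapped and stood above every other day. The mean of day 30, the lowest, was 134 ± 13.04, and that of day 10, the highest, was 599 ± 27.2, 4.46 times as much, and the day 35 arrays lay below both day 0 arrays.

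Rhox5, an X-linked homeobox gene that in mouse Sertoli cells depends on androgen, had the largest step between neighbouring days among the members, from day 8 to day 10. Its probe set 1423429_at read 131 and 119 on day 0, 78.8 and 85.9 on day 3, 74.8 and 59.3 on day 6, 148 and 147 on day 8, 736 and 673 on day 10, 541 and 514 on day 14, 500.3 and 513 on day 18, 415 and 463 on day 20, 288 and 235 on day 30, and 285 and 311 on day 35. Values were lowest on day 6 and highest on day 10. Day 10 stood clear of all other days, and its mean of 704 ± 44.6 was 10.5 times the day 6 mean of 67.1 ± 10.9. The arrays of days 14 and 18 nearly met, and all arrays of days 10 to 35 lay above all arrays of days 0 to 8.

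Tcf21, known in the fetal mouse testis as a repressor of Nr5a1, was lowest on days 30 and 35. The probe set 1417447_at read 2993 and 3179.6 on day 0, 2897 and 2798 on day 3, 2156 and 2247 on day 6, 2132 and 2599.8 on day 8, 1693 and 1910.5 on day 10, 1804 and 2436 on day 14, 1282 and 1287 on day 18, 1019 and 1073 on day 20, 266 and 252 on day 30, and 246 and 232 on day 35. Day 0 stood above every other day, and the arrays of days 30 and 35 lay between 232 and 266, below all others. The ratio of the day 0 to the day 35 mean was 12.9. The dimmer probe set 1458887_at lay between 15.1 and 175 and shared little of this course (r = 0.22). It was highest on day 0 as well, lowest on day 10, and its day 20 arrays read 70.9 and 15.1.

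Between birth and day 8, 2 members rose, Gata1 and Dmrt1. Of the 16 member probe sets 2 were called higher, where 4.87% of all probe sets were called and 2.45% were called higher. Gata1 was higher on day 8 by 2.04 ± 0.18 on the log2 scale (SE, adjusted p = 1.94e-07) and Dmrt1 by 1.20 ± 0.11 (adjusted p = 3.82e-07), with both day 8 arrays above both day 0 arrays for each gene. Nr0b1 had a difference of 0.95 ± 0.13 and missed the fold minimum (adjusted p = 2.46e-05). It was called, at 1.20, without day 0 replicate 2, the higher of the day 0 arrays, and at 1.06 with arrays set to a common median. Sox9 had 0.74 ± 0.16 (1451538_at) and Wt1 0.51 ± 0.14, both with arrays that do not overlap between the days and neither at the fold minimum. Gata4 had -0.63 ± 0.18 (1418863_at), Tcf21 -0.39 ± 0.11 (1417447_at) and Sox8 -0.92 ± 0.36, called at -1.04 with values below the pooled median of 34.5 raised to that floor. None of the 16 was called lower by limma (2.42% of all probe sets were). At an unadjusted p under 0.05, 5 had a lower and 5 a higher value. The share of all probe sets at that unadjusted p was not counted. 2 dim probe sets came near a call, 1443081_at of Gata6 at -1.14 ± 0.45 and 1458887_at of Tcf21 at -1.13 ± 0.40. The first was called without day 18 replicate 2, and the second without either day 20 array, since these enter the shared spread, and both when days 0 and 8 were fitted alone. The second was also called with the floor (-1.23) and with a larger constant before the logarithm, the pooled 40th percentile (-1.004). The median difference was -0.24 over the 16 and -0.03 over all probe sets tested.

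Between days 8 and 14 Rhox5 rose and Gata4 fell. Of the 16, 1 was called higher and 2 lower, where 5.96% of all probe sets were called, 3.86% higher and 2.1% lower. Rhox5 was higher on day 14 by 1.78 ± 0.13 (adjusted p = 3.05e-09), with 541 and 514 on day 14 against 148 and 147 on day 8. Gata4 had -1.13 ± 0.18 in 1418863_at (adjusted p = 8.82e-05) and -1.06 ± 0.24 in 1418864_at (adjusted p = 0.00367). Both Gata4 calls rested on single arrays: without day 8 replicate 2 the first was -0.98, and without day 8 replicate 1 the second was -0.90, both short of 2-fold, as was the second with the larger constant (-0.97). Gata1 had 0.97 ± 0.18 (adjusted p = 0.000768) and Nr0b1 0.60 ± 0.13, short of the fold minimum. In both genes the day 14 arrays lay above the day 8 arrays, a separation not counted over all probe sets. Gata6 had -0.93 ± 0.17 in 1425463_at, called at -1.06 without day 14 replicate 1, and -0.57 ± 0.15 in 1425464_at. The differences of Sox9 (-0.74 ± 0.16), Dmrt1 (-0.60 ± 0.11) and Wt1 (-0.33 ± 0.14) were smaller than 2-fold, and that of Tcf21 was -0.17 ± 0.11 in 1417447_at, where without day 14 replicate 1 it was 0.05. The median over the 16 was -0.51, and -0.02 over all.

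Between days 14 and 20, 6 of the 10 genes fell: Gata1, Gata4, Gata6, Wt1, Nr0b1 and Dmrt1. Of the 16 probe sets 8 were called lower, where 26.7% of all were called, 12% lower and 14.7% higher. Dmrt1 had -1.59 ± 0.11 (adjusted p = 9.65e-10), Nr0b1 had -1.19 ± 0.13, Wt1 -1.11 ± 0.14 and Gata1 -1.05 ± 0.18. Gata4 had -1.31 ± 0.18 in 1418863_at and -2.66 ± 0.24 in 1418864_at, whose day 20 values are at control level; with the floor at the pooled median this probe set had -1.51. Gata6 had -1.72 ± 0.15 in 1425464_at and -1.08 ± 0.17 in 1425463_at. The call of Gata1 ended without day 20 replicate 1 (-0.86), with quantile normalization (-0.89) and with the larger constant (-0.99), and that of Gata6 1425463_at without day 14 replicate 1 (-0.94), with quantile normalization (-0.95) and with the larger constant (-0.94). Tcf21 missed the fold minimum at -0.998 ± 0.11 (1417447_at, adjusted p = 3.19e-07) and was called without day 14 replicate 1 (-1.21) or without day 20 replicate 2 (-1.03). It was also called with quantile normalization (-1.18), a common median (-1.21), a smaller constant, the pooled 5th percentile (-1.002), and the floor (-1.004). Sox9 had -0.94 ± 0.16 in 1451538_at and was called without day 14 replicate 2 (-1.03), without day 20 replicate 1 (-1.16) or with a common median (-1.15). Sox8 had -0.67 ± 0.36, called at -1.05 without day 20 replicate 2. Rhox5 had -0.26 ± 0.13, with 415 and 463 on day 20 against 541 and 514 on day 14. No member was called higher by limma. At an unadjusted p under 0.05, 10 of the 16 had a lower value and 0 a higher one. The share of all probe sets at that unadjusted p was not counted. The median over the 16 was -1.03 and over all -0.04.

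Between days 20 and 35 Tcf21 fell and most other members differed by less than 2-fold. Of the 16, 1 was called higher and 1 lower, where 14% of all probe sets were called, 6.71% higher and 7.28% lower. Tcf21 had -2.09 ± 0.11 in 1417447_at (adjusted p = 1.53e-11), with 246 and 232 on day 35 against 1019 and 1073 on day 20. The probe set called higher was 1418864_at of Gata4, at 1.25 ± 0.24, which rests on day 20 values at control level: its difference was 0 with the floor at the pooled median and 0.81 with the larger constant, and in a fit on the 2 days alone it was not called. The other Gata4 probe set had -0.17 ± 0.18, and 0.21 without day 35 replicate 1. Sox9 had -0.95 ± 0.16 in 1451538_at, called at -1.17 without day 20 replicate 2, at -1.01 with the smaller constant and at -1.02 with the floor, Dmrt1 -0.70 ± 0.11, Nr0b1 -0.70 ± 0.13, Wt1 -0.69 ± 0.14 and Rhox5 -0.55 ± 0.13. For each of these 5 genes both day 35 arrays lay below both day 20 arrays, and how many of all probe sets did so was not counted. Gata1 had -0.14 ± 0.18, with arrays that overlap. The dim Tcf21 probe set 1458887_at had 0.54 ± 0.40, and was called at 1.43 without day 20 replicate 1. The medians were -0.16 over the 16 and -0.17 over all.

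Over the whole span, day 35 against day 0, Gata1 and Rhox5 were higher, Nr0b1 did not reach 2-fold, and the other 7 genes were lower. Of the 16 probe sets 3 were called higher and 11 lower, where 51% of all were called, 22.9% higher and 28.1% lower. Gata1 had 1.81 ± 0.18, with 128 and 166 on day 35 against 34.1 and 37.5 on day 0, and Rhox5 1.20 ± 0.13, with 285 and 311 on day 35 against 131 and 119 on day 0. The third call, 1433889_at of Sox9 at 1.001 ± 0.43 (adjusted p = 0.0457), was made on low values, and it ended without day 0 replicate 2 (0.61), without day 35 replicate 1 (0.69), without any 1 array of days 3, 10 or 14, and with other constants and scalings. The largest differences were those of Tcf21 (-3.65 ± 0.11 in 1417447_at, adjusted p = 2.16e-16) and Gata4 (-3.24 ± 0.18 in 1418863_at and -2.80 ± 0.24 in 1418864_at). Gata6 had -2.36 ± 0.15 and -2.10 ± 0.17, Sox8 -2.02 ± 0.36, Sox9 -1.89 ± 0.16 and -1.51 ± 0.30, Dmrt1 -1.69 ± 0.11 and Wt1 -1.63 ± 0.14. The dim Tcf21 probe set had -1.46 ± 0.40. Nr0b1 had -0.33 ± 0.13, below the fold minimum. Its highest days lay between. The 5 comparisons share arrays and are not independent.

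**Figure D2:**
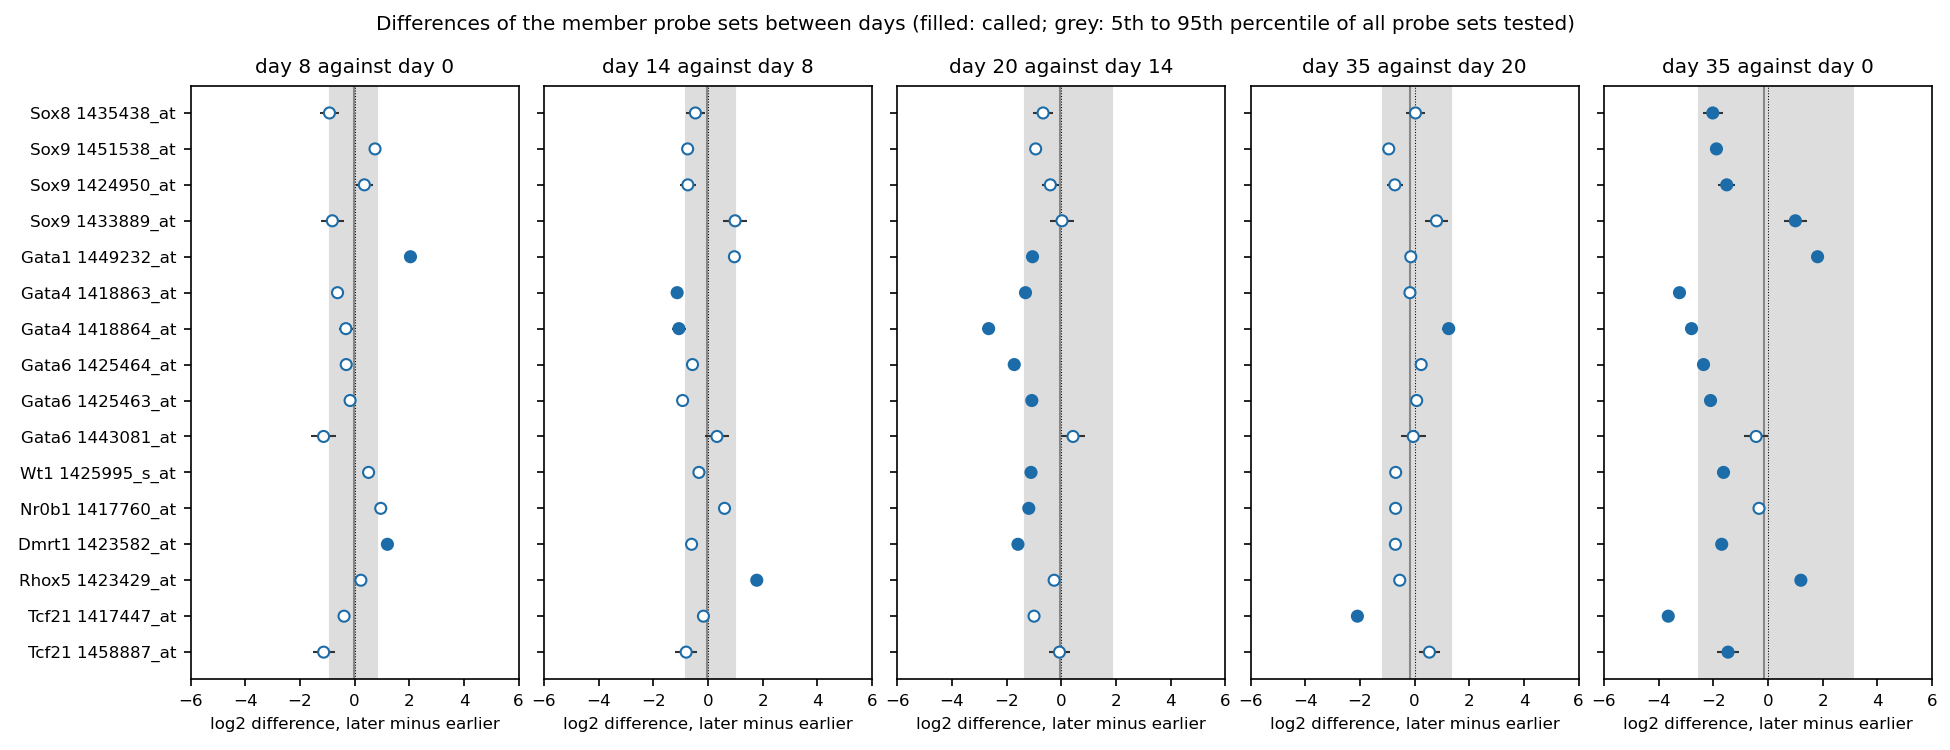
Log2 differences of the 16 probe sets between days, later minus earlier, with SE bars, in 5 panels. Filled circles are called, and the grey band spans the 5th to the 95th percentile of all probe sets tested, with their median as a line. On day 20 against day 14 the 8 called members all lie below 0. On day 35 against day 0 those of Gata1, Rhox5 and the low Sox9 probe set 1433889_at lie above 0.

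The 9 steps between neighbouring days placed these changes. In 8 cases a member was called. Gata1 had its called step between days 3 and 6 (1.26 ± 0.18), where 1.17% of all probe sets were called, 0.898% higher. On day 10 against day 8 it had 0.93 ± 0.18 (adjusted p = 0.0084), short of the fold minimum. Rhox5 had 2 steps, 1.06 ± 0.13 on day 8 against day 6 (0.139% of all called, 0.0939% higher) and 2.20 ± 0.13 on day 10 against day 8 (adjusted p = 7.92e-09, 0.601% of all called, 0.357% higher). The first ended without day 6 replicate 2 (0.91) and with the larger constant (0.94). On day 18 against day 14, with 16.8% of all called and 5.15% called lower, 3 members fell: 1418864_at of Gata4 at -1.56, 1425464_at of Gata6 at -1.40 and Dmrt1 at -1.13. Without day 18 replicate 2, the array whose labels differ, they had -1.17, -1.27 and -1.05 and were still called. On day 20 against day 18 (2.52% of all called, 0.939% lower) the low Gata4 probe set had -1.10, a call lost without day 18 replicate 1 (-0.71), without day 20 replicate 2 (-1.02), with the larger constant (-0.71) and with the floor (-0.09), and kept without day 18 replicate 2 (-1.49). Tcf21 had its step on day 30 against day 20 (-1.98 ± 0.11, 14.6% of all called, 6.34% lower). No member was called by limma on day 3 against day 0 (0.308% of all called), on day 14 against day 10 (3.12%) or on day 35 against day 30 (2.44%), where 7, 7 and 3 of the 16 had an unadjusted p under 0.05. The percentages are of calls. The share of all probe sets under that unadjusted p was not counted, so nothing is read from these numbers.

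Whole testis gains germ cells over this period, so the members were also set against other Sertoli cell genes. The 15 listed Sertoli cell markers that were tested, among them Clu, Cst9, Aard, Kitl and the receptor gene Fshr, hold none of the 10 genes. The median change of the markers from day 0, averaged over the 2 arrays, was -0.68 on day 14, -1.34 on day 20 and -1.68 on day 35. Single markers lay far from that median on both sides. Cldn11 averaged 382 on day 35 against 85.5 on day 0, and Amh 10.2 against 734. A distance from the median therefore does not set a member apart from other Sertoli cell genes. On day 35 Gata1 stood 3.49, Rhox5 2.88 and Nr0b1 1.35 above that median change. Wt1 (0.05), Dmrt1 (-0.02), Sox9 (-0.21 and 0.17 in its 2 concordant probe sets) and Sox8 (-0.34) lay close to it. Gata4 stood below it at -1.56 and -1.12, and Tcf21 at -1.97 (1417447_at), while Gata6 lay at -0.68 and -0.42 in its 2 concordant probe sets. The low probe sets Sox9 1433889_at (2.68) and Gata6 1443081_at (1.24) stood above that median change, and the dim Tcf21 probe set 1458887_at was at 0.22. Gata1, Rhox5 and Nr0b1 were already above the markers by more than 1 on day 14, at 3.68, 2.69 and 2.24. On day 20 Tcf21 1417447_at was at -0.22, close to the markers, and Gata4 at -1.73 and -2.71. These are descriptions with no test, and the result for the members depends on the marker list. Without Amh, Krt8, Krt18 and Gdnf, a choice made after their values were seen, the median change on day 35 was -1.50. These were not the markers that fell most. Vim, which was kept, averaged 558 on day 35 against 6457 on day 0, and Krt8 60.2 against 302. Gata1, Rhox5 and Nr0b1 were then at 3.32, 2.71 and 1.18, Gata4 at -1.73 and -1.29, and Tcf21 1417447_at at -2.14. Sox9 1433889_at and Gata6 1443081_at were at 2.51 and 1.07.

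**Figure D3:**
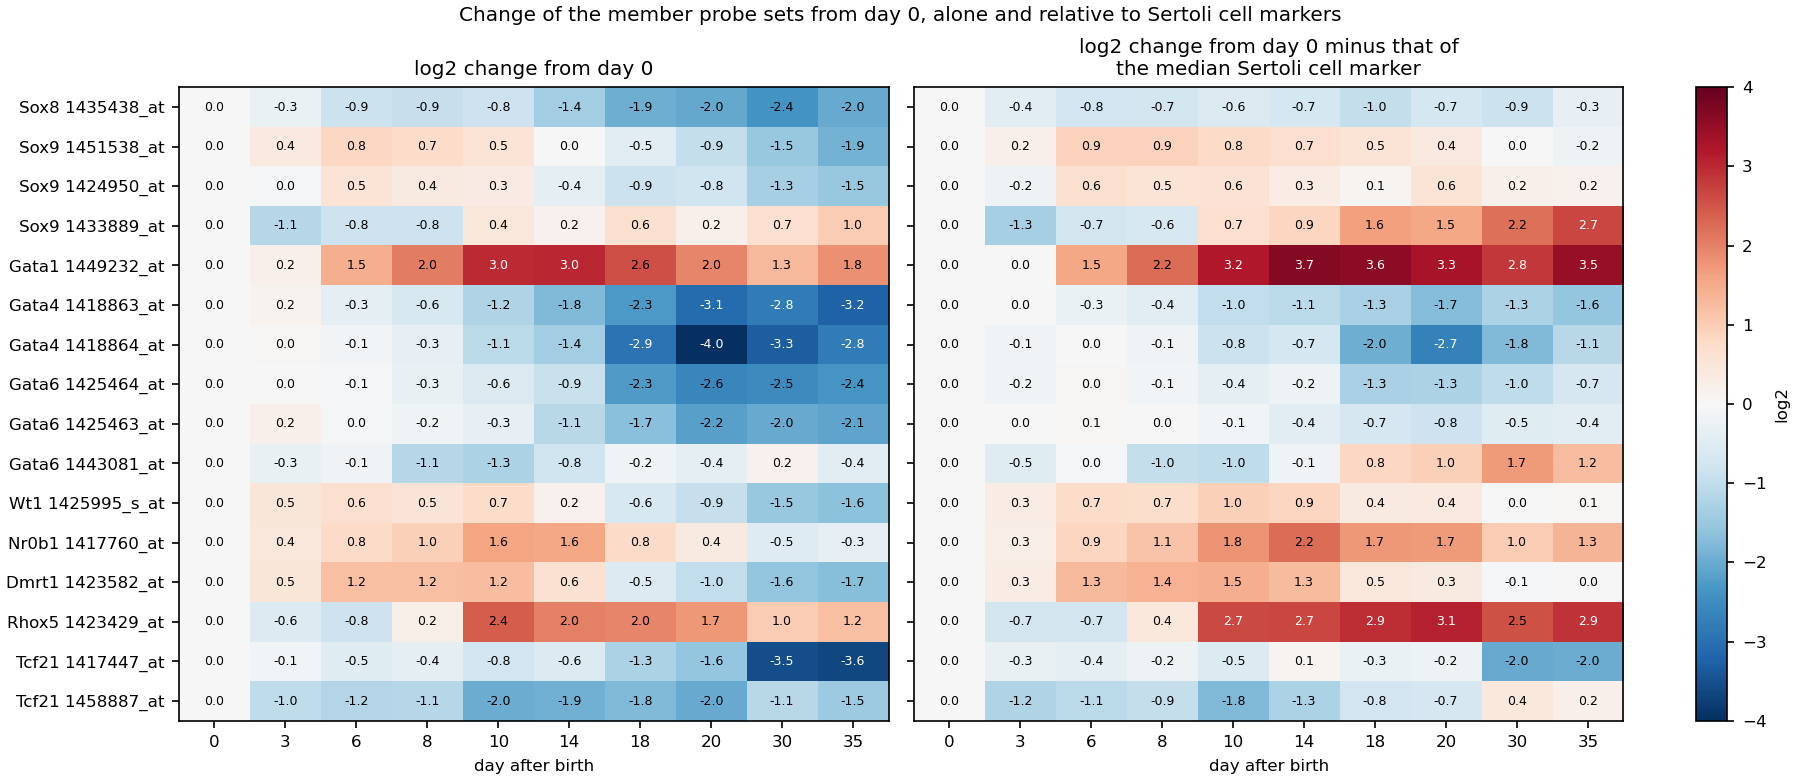
Log2 change of the 16 probe sets from day 0 at each day (left), and the same minus the change of the median Sertoli cell marker (right), as means of 2 arrays. In the right panel Gata1, Rhox5 and Nr0b1 are red on day 35, at 3.49, 2.88 and 1.35. Rhox5 is blue on days 3 and 6 (-0.74 each). The low probe sets Sox9 1433889_at (2.68) and Gata6 1443081_at (1.24) are red on day 35 as well. The 2 Gata4 probe sets are blue there, at -1.56 and -1.12.

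Over the 10 day means several members had courses that ran together, without sharp borders between them. Dmrt1, Sox9 and Wt1 correlated with each other at r = 0.98 (each gene by its brightest probe set), Gata4 with Gata6 at 0.96 and with Sox8 at 0.95. Rhox5 and Gata1 had r = 0.79, Gata1 and Nr0b1 0.64. Gata4 had r = -0.68 with Rhox5 and -0.48 with Gata1. The points share arrays and n is 10 days, so these are descriptions. How common a course is among all probe sets differed widely: 2318 of the 37292 had r above 0.95 with Tcf21, 2212 with Wt1, 1798 with Sox9, 1306 with Gata6, 1304 with Gata4, 1027 with Dmrt1 and 517 with Sox8, against 129 with Nr0b1, 39 with Gata1 and 12 with Rhox5.

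The named genes whose courses were most like each member's by this measure were Tdrp (r = 0.99) and Cnnm4 (0.98) for Rhox5, Prr15 and Pspc1 (0.98 each) for Gata1, and Slc52a3 and Nptx2 (0.99 each) for Nr0b1. For Sox8 they were Rcan1 and Rab5if (0.99 each). For the genes with common courses r came near its ceiling: Dmrt1 had Pard6b (0.995) and Mtcl1 (0.992), Sox9 had Snx18 and Parp1, Wt1 Slc44a2 and Gart, Gata4 Meg3 and Frmd4a, Gata6 Hif1a and Ilvbl, and Tcf21 Cnbp and Dnajc11, with r between 0.994 and 0.998.

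Gata1, Nr0b1 and Rhox5 are X-linked in the RefSeq annotation, and the X chromosome is silenced in male germ cells during meiosis. Of 988 X-linked probe sets tested, 30.2% were called lower and 6.58% higher on day 20 against day 14, with a median difference of -0.68. Over all probe sets tested it was 12% lower and 14.7% higher, with a median of -0.04. Gata1 (-1.05) and Nr0b1 (-1.19) were called lower in this comparison, and Rhox5 (-0.26) was not called. On day 35 against day 0, 49.5% of the X-linked probe sets were called lower and 14.1% higher, and their median was -0.99. Over all probe sets tested it was 28.1% lower and 22.9% higher, with a median of -0.13. Gata1 (1.81) and Rhox5 (1.20) were among those higher on day 35 than on day 0, and Nr0b1 (-0.33) was not called.

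Partners and cofactors of the members mostly fell over the course. Of 16 listed, 15 were tested. On day 35 against day 0, 11 were called lower and 1 higher, where 28.1% of all probe sets tested were called lower and 22.9% higher. The median of the partners was -1.95 and that over all probe sets tested -0.13. The largest falls were those of Lhx9, a LIM homeobox gene of the early gonad (-3.79 ± 0.23), Sox4, a SOX relative (-3.63 ± 0.08), and Tcf12, an E-protein partner of basic helix-loop-helix factors such as TCF21 (-3.55 ± 0.11). Lhx9 averaged 41.6 ± 18.0 on day 35 against 656 ± 23.6 on day 0. Genes of these lists named beyond the 3 largest called changes of a comparison were chosen after their values were seen. Among them here were Nr5a1 (-2.19), the steroidogenic factor bound by DAX1 and GATA4, and the GATA cofactors Zfpm1 (-1.48) and Zfpm2 (-1.51), and Emx2 was the 1 called higher (1.27, and 0.99 with the larger constant).

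Each of the 4 shorter comparisons had fewer calls among the partners. Over all probe sets tested these comparisons had 2.42%, 2.1%, 12% and 7.28% called lower, and 2.45%, 3.86%, 14.7% and 6.71% higher, in order of days. On day 8 against day 0 the 3 that fell were Lhx9 (-1.74), the homeobox gene Emx2 (-1.51) and Nr0b2 (-1.31), a relative of Nr0b1. Emx2 averaged 3.77 on day 8 and 24.5 on day 0, both under the pooled median, and its difference was 0 with the floor and -0.87 with the larger constant. Its call also ended without day 8 replicate 1 (-1.20). The call of Nr0b2 (adjusted p = 0.0106) was lost without day 8 replicate 1 (-1.24) or without either day 0 array (-1.30 and -1.33). On day 14 against day 8 Lhx9 (-1.32) was the 1 called. On day 20 against day 14, 3 fell, Tcf12 (-1.64), Map3k4 (-1.29), a kinase gene upstream of Sry, and Sox4 (-1.23), and Emx2 was called higher (2.11, with 56.8 on day 20 against 7.21 on day 14, and 0.72 with the floor). On day 35 against day 20, 5 fell: Tcf3 (-1.69), Tcf12 (-1.49) and Tcf4 (-1.002), which encode E-proteins, Sox4 (-1.15, and -0.96 with quantile normalization) and Map3k4 (-1.08, and -0.95 with the larger constant). The call of Tcf4 ended without day 20 replicate 1 (-0.84) or day 35 replicate 1 (-0.66), with quantile normalization (-0.81), a common median (-0.97) and the larger constant (-0.92). Nr0b2 was called higher (1.04), and not without day 20 replicate 2 (0.67) or day 35 replicate 2 (0.94), with the larger constant (0.77), with the floor (0.63) or in a fit on the 2 days alone.

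Of 19 listed close relatives of the members, 14 had a probe set with a single symbol and 12 were tested. Over the whole span, day 35 against day 0, 2 rose and 2 fell, where 22.9% of all probe sets tested were called higher and 28.1% lower. The median of the relatives was -0.07 and that over all probe sets tested -0.13. In order of days, the 4 shorter comparisons had 2.45%, 3.86%, 14.7% and 6.71% of all probe sets called higher. Called lower were 2.42%, 2.1%, 12% and 7.28%. Dmrta1, a Dmrt relative, was higher on day 8 than on day 0 by 2.32 ± 0.12 and Rhox13, a germ cell Rhox gene, by 2.19 ± 0.18. Both fell on day 20 against day 14, Rhox13 at -1.54 ± 0.18 and Dmrta1 at -1.06 ± 0.12, where Dmrta1 was under 2-fold without day 14 replicate 2 (-0.98) or day 20 replicate 2 (-0.99) and with quantile normalization (-0.95). Tcf23, a Tcf21 relative, was the third to fall there (-1.13, -0.93 without day 20 replicate 1 and -0.92 with the larger constant), and Tcf15 fell on day 14 against day 8 (-1.37). Sox10, the third gene of the SOX group that holds Sox8 and Sox9, rose on day 35 against day 20 (1.65 ± 0.38) and against day 0 (2.69 ± 0.38), while Dmrta1 fell on day 35 against day 20 (-1.20). Sox10 had 149 ± 4.96 on day 35 against 17.4 ± 9.18 on day 0, where Sox8 and the concordant Sox9 probe sets were lower on day 35. The other changes on day 35 against day 0 were on low values: Tcf23 had -1.70, Dmrt3 -1.24 (-0.80 without day 35 replicate 2, -0.91 with the larger constant and -0.68 with the floor) and Gata3 1.33, with 26.6 on day 35 against 6.48 on day 0, a call lost without day 0 replicate 1 (0.88) or either day 35 array, with quantile normalization (1.04), the larger constant (0.79) and the floor (0).

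Genes known from mouse work as targets of the members were mostly lower later. All 12 listed were tested, and 8 were called lower on day 35 against day 0, where 28.1% of all probe sets were, with a median of -1.82 where that over all was -0.13. Amh, the Müllerian duct hormone gene activated by SOX9, WT1 and GATA4, had -5.36 ± 0.28, with 10.2 ± 2.34 on day 35 against 734 ± 70.2 on day 0. Vnn1, a SOX9 target, had -3.87 ± 0.26 and Dhh, the Sertoli hedgehog ligand, -3.37 ± 0.10. On day 8 against day 0, where 2.42% of all probe sets were called lower, 5 fell: Ptgds, the prostaglandin synthase gene downstream of SOX9 (-3.54), Amh (-2.15), Unc5c (-1.82), Vnn1 (-1.75) and Inha (-1.08). The call of Unc5c was lost without day 0 replicate 1 (-1.47) or day 8 replicate 1 (-1.30), with quantile normalization (-1.59) and with the floor (-0.55), and that of Inha with quantile normalization (-0.78) or a common median (-0.98). Ins2, reported as a target of RHOX5, rose over the same days (2.57, with 107 on day 8 against 11.6 on day 0, and 1.63 with the floor), where 2.45% of all probe sets were called higher. The Ins2 probe set is of the kind that can also bind related transcripts.

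Between days 8 and 14, where 2.1% of all probe sets were called lower, Amh (-2.23), Ptgds (-1.92), Ins2 (-1.75) and Dhh (-1.47) fell. Ins2 was thus lower on day 14 than on day 8, while Rhox5 was higher. On day 20 against day 14, where 12% of all probe sets were called lower, 3 fell: Cyp26b1 (-1.43), which encodes an enzyme that breaks down retinoic acid, Dhh (-1.39) and the inhibin gene Inhbb (-1.33). On day 35 against day 20, 6.71% of all probe sets were called higher and 7.28% lower. Ptgds rose there (2.83, with 793 ± 108 on day 35 against 108 ± 44.4 on day 20), as did Col9a3 (1.66, and 0.41 with the floor). Cyp26b1 (-1.28) and Vnn1 (-1.06, -0.73 without day 35 replicate 1 and -0.87 with the larger constant) fell. Amh, Inhbb and Fshr are also among the Sertoli cell markers.

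Of 8 genes listed as belonging to the ovarian pathway, 7 were tested. On day 35 against day 0, where 28.1% of all probe sets were called lower, 4 of them were: Hsd17b1 (-5.32 ± 0.33), Rspo1 (-2.09 ± 0.34), Esr2 (-1.53 ± 0.41) and Wnt4 (-1.15, -0.96 without day 0 replicate 1, -0.88 with the larger constant and -0.80 with the floor). Hsd17b1, which encodes an enzyme of estradiol synthesis, had 18.3 ± 10.5 on day 35 against 993 ± 69.4 on day 0. It fell on day 8 against day 0 (-2.32) and on day 14 against day 8 (-3.23), where 2.42% and 2.1% of all probe sets were called lower. Rspo1 and Esr2 averaged 5.33 and 7.07 on day 35, at control level, and had -0.48 and -0.08 with the floor. Bmp2 fell on day 20 against day 14 (-1.23 ± 0.45, adjusted p = 0.0301), where 12% of all probe sets were called lower. The call was lost without any 1 of the 4 arrays of those days (-1.34 to -1.12), with the smaller (-1.48) and the larger constant (-0.90) and with the floor (-0.57).

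Markers of other cell types moved over the same days. Of all probe sets tested, 28.1% were called lower and 22.9% higher on day 35 against day 0, the comparison of the calls given here. The 15 Sertoli cell markers summed to 13836 and 14915 on the day 35 arrays and 37678 and 38269 on the day 0 arrays, with 12 called lower and 1 higher, Cldn11. The 10 germ cell markers summed to 31554 and 35271 on day 35 and 2410 and 2426 on day 0, with 7 called higher and 1, Zbtb16, lower. Of these, Tnp1 and Prm1, which mark spermatids, averaged 15.6 and 25.1 on day 0, near the floor of the arrays. The 6 Leydig cell markers summed to between 3494 and 4814 on day 35 and between 8465 and 8759 on day 0 (1 higher, 3 lower). The 6 peritubular myoid markers summed to between 3191 and 3453 on day 35 and between 4449 and 4613 on day 0 (1 higher, 4 lower). The 6 endothelial markers summed to between 147 and 209 on day 35 and between 591 and 644 on day 0, with 5 called lower. The 6 macrophage markers summed to between 983 and 1041 on day 35 and between 529 and 545 on day 0, with 2 called higher. Of the epididymis markers 4 were tested, and 3 were called higher and 1 lower on day 35 against day 0, all with day 35 means under 58. No marker was listed at 0 on any array. The part of these shifts in the members' changes was not tested.

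**Figure D4:**
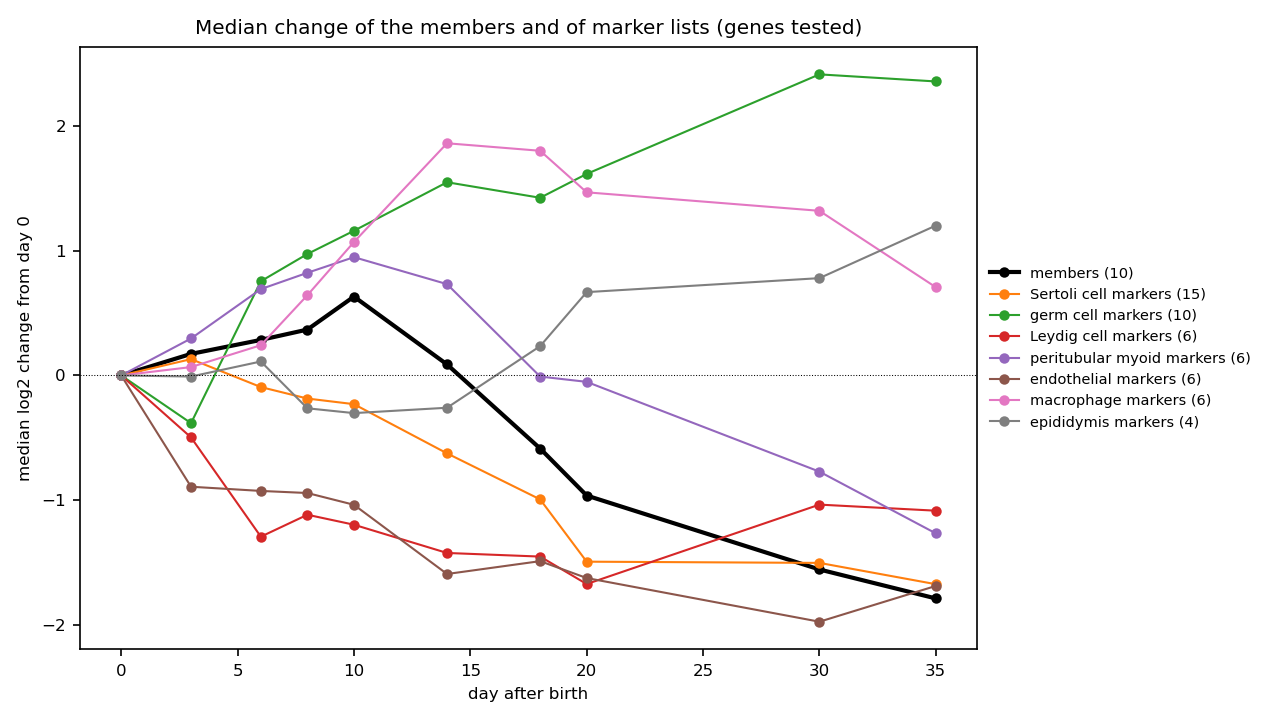
Median log2 change from day 0 of the 10 genes (1 probe set each, the brightest, black) and of 7 marker lists, against day after birth, with the number of genes tested in brackets. The members' median was -1.79 on day 35 and 0.63 on day 10, that of the Sertoli cell markers -1.67 and -0.23, and that of the germ cell markers 2.36 and 1.16.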

How the data were processed

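Whole mouse testis RNA was hybridised, per the labels' protocols, to single-channel 3′ expression arrays after Trizol extraction and biotin labelling. The deposited table holds 1 linear intensity per probe set and array; no summarising software is given in the sources used here. Gene symbols came from the platform annotation: of 45101 probe sets 34945 carry 1 symbol, 932 several, 9160 are unlisted and 64 are controls, left out. 34741 matched RefSeq (GRCm38.p6) by Entrez identifier. Tests covered the 37292 probe sets that exceeded the 40th percentile of 2 or more arrays. The constant 7.84 is the pooled 20th percentile. limma 3.58.1 in R 4.3.3 (lmFit, eBayes with trend, day as a factor, all 20 arrays, 10 residual and 9.37 prior degrees of freedom) gave two-sided p-values, adjusted over all probe sets tested by Benjamini-Hochberg. No further normalization was applied. The script was tested on simulated data for day 8 against day 0, with 50 changes of each size. Of log2 changes of 1, 1.5, 2 and 3 it called 34%, 64%, 82% and 94%, with 5 false calls. A difference that was not called is therefore not shown to be absent. Arrays of the same replicate number on different days did not deviate together (45 pairs of days, correlations -0.027 to 0.091), so numbers do not pair arrays. The members and lists were chosen with earlier results of these data known. Named genes are every member probe set, the 2 named genes of most similar course per member, and the 3 largest called changes of each pathway list in each main comparison; the cell type marker lists are given by their counts and sums. The number of arrays limits precision.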

Additional observations from a re-analysis of the deposited data

How the results depend on the processing

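Of the values of single member probe sets recomputed under the alternatives, 2764 kept their direction and side of the call, 45 gained a call, 34 lost it and 16 changed sign. Counts over all probe sets depend on the settings. With 1 probe set a gene they were 1310 (day 14 against day 8), 4834 (20 against 14), 9018 (35 against 0), 2592 (35 against 20), 995 (8 against 0) and 12748 (time course), and the members lower were 1, 7 for day 35 against day 0, and the member higher on day 35 against day 20 0, since fewer probe sets were tested. With no fold minimum they were 6188 (14 against 8), 17357 (20 against 14), 12580 (35 against 20) and 5522 (8 against 0), the members 3 higher and 6 lower (14 against 8), 6 lower (35 against 20), 5 higher and 2 lower (8 against 0), and the steps 33. With the larger constant they were 1461, 6411, 3280 and 1163, with 1 member lower on day 14 against day 8, 0 higher on day 35 against day 20 and 1 lower on day 8 against day 0. With the floor day 20 against day 14 had 6401, and the members 0 higher and 2 lower on day 35 against day 20 and 2 lower on day 8 against day 0. An adjusted p under 0.01 gave 1207 for day 8 against day 0, the compared days alone 0 members higher on day 35 against day 20 and 2 lower on day 8 against day 0, and the pooled 5th percentile as constant 2 lower on day 35 against day 20. Beyond these constructions the cause was not tested.

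Leaving out each array in turn gave 1664 to 2323 probe sets (members 1 higher, 1 to 3 lower) on day 14 against day 8, 8342 to 10119 (0 higher, 8 to 10 lower) on day 20 against day 14, 17674 to 19138 (2 to 3 higher, 11 lower) on day 35 against day 0, 5028 to 5641 (1 to 2 higher, 1 to 2 lower) on day 35 against day 20, 1296 to 1939 (2 to 3 higher, 0 to 1 lower) on day 8 against day 0, 7 to 9 step calls, and 26577 to 27613 over the time course (15 to 16 members). Relative to the markers 5 probe sets were at least 1 above and 3 at least 1 below on day 35 whichever array of days 0 and 35 was left out. With quantile normalization 4 were above (Gata6 1443081_at at 0.95), and with the larger constant 2 were below (Gata4 1418864_at at -0.88). The replicate number as a block gave 2221 probe sets on day 14 against day 8 and 1 member lower on day 8 against day 0 (1458887_at of Tcf21, -1.13), and no other member count moved. Since the numbers do not pair arrays, nothing is read from it. The median over all probe sets on day 20 against day 14 was -0.04, -0.12 with quantile normalization and -0.21 with a common median.

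The sign changes were all in uncalled differences. On day 20 against day 14 Sox9 1433889_at had -0.13 with a common median and -0.30 with quantile normalization, and Tcf21 1458887_at 0.43 with the floor. On day 35 against day 20 Gata1 had 0.020 with quantile normalization. The other sign changes came from leaving out single arrays of the days compared. Over all arrays left out, Tcf21 1417447_at had -0.38 to 0.049 on day 14 against day 8. On day 20 against day 14 Sox9 1433889_at had -0.18 to 0.23 and Tcf21 1458887_at -0.96 to 0.82. On day 35 against day 20 Gata1 had -0.33 to 0.052, Gata4 1418863_at -0.55 to 0.21, Gata6 1425463_at -0.0052 to 0.15, Gata6 1443081_at -0.34 to 0.23, Sox8 -0.42 to 0.48 and Tcf21 1458887_at -0.35 to 1.43.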
